A study of Homo sapiens with 8 samples.

Results

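The ΔIDR mutant of PML/RARα was compared with an empty vector in NB4 cells, over all genes, in 4 of the 8 RNA sequencing libraries of the study. NB4 is an established human line from acute promyelocytic leukemia, with the PML/RARα fusion as its hallmark. Cells of both groups underwent knock-down of their own fusion and had carried lentivirus for 72 h. One group of 2 libraries received an empty vector, and the other received HA-tagged PML/RARα with the ΔIDR deletion, which the labels describe as unable to phase separate. The other 4 libraries, 2 with HA-tagged full-length PML/RARα and 2 with the mutant F158E, also after the knock-down, entered the fit and were used for direct tests against ΔIDR. Which residues ΔIDR lacks is not given in the labels. No library without the knock-down was analysed here, so empty vector cells stand for depleted cells and not for untouched NB4 cells. Whether a group's libraries stem from separate cultures is not stated, so p-values reflect library-to-library spread alone, which may be technical. That spread was taken over all 8 libraries and mostly shared across genes, with 4 residual against a median of 78.3 prior degrees of freedom. Very small p-values and SE thus do not rest on a gene's own 2 libraries per group.

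PML/RARα joins PML, the scaffold protein of PML nuclear bodies, to the retinoic acid receptor α, a nuclear receptor that pairs with RXR and turns target genes on or off with its ligand. In acute promyelocytic leukemia the fusion acts on receptor and PU.1 target genes, and the cells stop at the promyelocyte stage, when primary granules are made. Later granulocytes acquire secondary granules, the NADPH oxidase and receptors for chemoattractants, and a side branch under GATA factors gives eosinophils and basophils.

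Gene counts summed to 18613826 and 19037914 with empty vector and to 16779364 and 21965389 with ΔIDR. Of 14 promyelocyte markers, 12 were tested, of which 5 rose, 5 fell and 2 did not pass, with a median log2 fold change of -0.04. The 14 summed to 17530 and 17325 CPM (read counts corrected for the size of each library) with empty vector and 19353 and 19411 CPM with ΔIDR. SRGN, given below, rose by about as much as this whole sum, so the sum does not show a joint rise of the markers. ELANE, a marker of that stage, had at most 2 counts in any library. Defining markers of other cells were low: CD14, the monocyte co-receptor, was at 0.755 and 1.43 CPM with empty vector and 0.121 and 0.778 CPM with ΔIDR. Summed over 16 monocyte and macrophage markers the level was 132 and 121 against 110 and 116 CPM, and up to 6 of them were at 0 counts in a library. Against this sum, the scavenger receptor MARCO went from 0.108 and 0.106 to 1.03 and 1.42 CPM (edgeR adjusted p = 0.0129, but 0.113 to 0.119 without the second ΔIDR or either empty vector library), and CD163, another scavenger receptor, from 0 and 1 to 9 and 10 counts, too few to be tested. The 16 lymphoid markers summed to 334 and 332 against 389 and 386 CPM, of which CD4, also a monocyte lineage gene, held 291 and 290.2 against 339.6 and 336 CPM. The 16 erythroid and megakaryocyte markers summed to 11.1 and 10.9 against 16.6 and 18.7 CPM, with 10 to 12 of them at 0. The 15 epithelial and fibroblast markers summed to 14.8 and 17.3 against 13.7 and 11.5 CPM, with 5 to 8 at 0. The part of these shifts in the results below was not tested. Reads of the 13 mitochondrially encoded genes took 3.71% and 3.72% of gene counts with empty vector and 4.20% and 4.22% with ΔIDR. In bulk RNA, a change in the number of cells of a kind and a change of RNA per cell cannot be told apart.

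In cells with ΔIDR, neutrophil defensins and calgranulins, 11 of 18 tested eosinophil, basophil and mast cell genes and 6 of 9 NADPH oxidase genes stood higher than with empty vector. Of 24 tested primary granule genes 12 rose and 4 fell, and of 12 tested secondary and tertiary granule genes 3 fell. Tissue factor, the matrix metalloproteases MMP2 and MMP9 and the secreted protein gene CYTL1 stood lower. Of 13982 genes tested, 1439 differed at an edgeR adjusted p below 0.05, which is 10.3% of them. ΔIDR raised 708 genes (5.06%) and lowered 731 (5.23%). Most differences were small, with 1034 of the 1439 under 1.5-fold. A difference of at least 2-fold was found for 192 genes (1.37%), 110 higher and 82 lower, and of at least 4-fold for 46 higher and 24 lower genes. The median log2 fold change over all tested genes was -0.00.

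**Figure D1:**
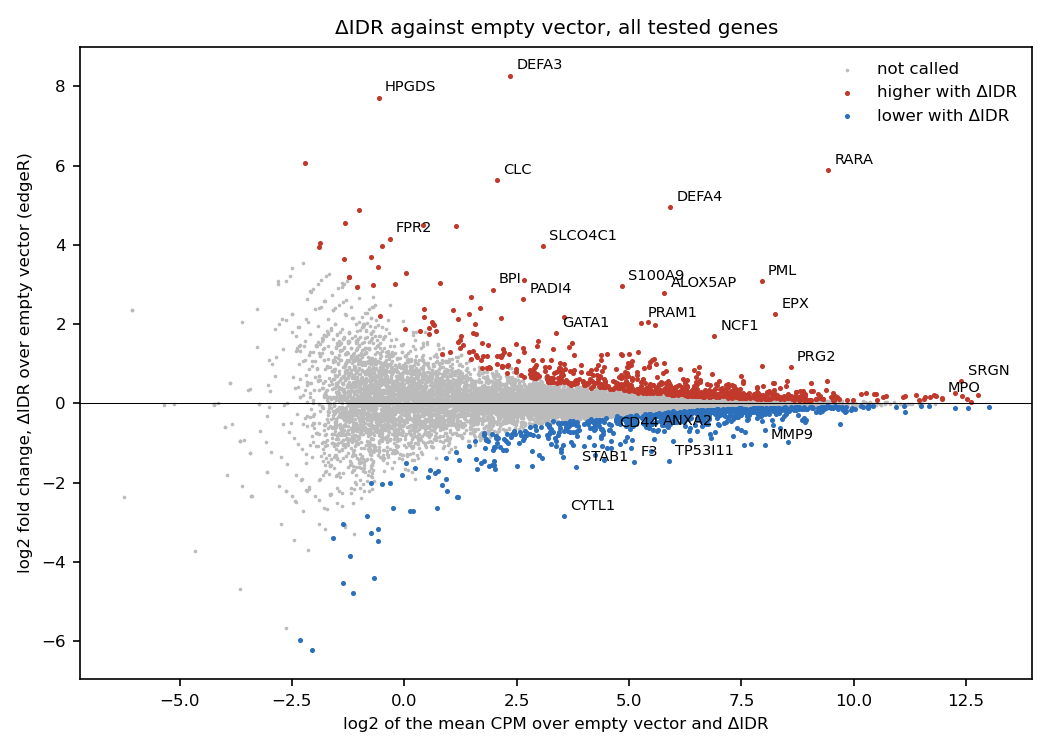
Each point is 1 of the 13982 tested genes, with the log2 of its mean CPM over the 4 libraries on the x axis and its edgeR log2 fold change, ΔIDR over empty vector, on the y axis, and with genes called higher in red, lower in blue and not called in grey. RARA stands farthest up among genes of high level, DEFA4, S100A9, ALOX5AP and EPX lie above the line at 0, CYTL1, F3 and MMP9 lie below it, and the fold changes of genes with few counts scatter widely; a gene with no count in any of the 4 libraries is not drawn.

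The genes of the fusion itself check the labels. RARA (ENSG00000131759.16, chromosome 17, positions 40309192 to 40357643, GRCh38), the receptor partner, was at 24.1 and 22.1 CPM with empty vector and at 1351 and 1364 CPM with ΔIDR. That is a log2 fold change of 5.88 ± 0.04 (SE with the shared spread, 2 libraries per group, edgeR adjusted p = 4.96e-94). The other partner, PML (ENSG00000140464.18, on chromosome 15 from 73994673 to 74047812), was at 51.0 and 52.8 CPM against 445 and 440.0 CPM, a log2 fold change of 3.09 ± 0.05 (edgeR adjusted p = 8.13e-68). Both genes were far above empty vector in both ΔIDR libraries, and neither group overlapped the other. A gene's count pools the normal alleles, any remaining endogenous fusion and the construct. ΔIDR libraries held 391 CPM of PML and 1335 CPM of RARA above the empty vector mean, a ratio of 0.293. The same excess was 72.4 and 53.9 CPM with full-length PML/RARα, a ratio of 1.34, and 14.0 and 9.24 CPM with F158E, a ratio of 1.52. Fewer PML than RARA reads are thus counted above empty vector with ΔIDR alone of these constructs. Because the construct's RNA was also more abundant in ΔIDR cells than in the other 2 constructs' cells, the level of the construct and the deletion cannot be told apart in a test between them. Protein was not measured in these files.

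Neutrophil defensins and S100 calgranulins had the highest median fold change of any list besides the fusion partners. Of 6 tested members of this list of 8, 5 rose and 1 did not pass, with a median log2 fold change of 3.03, beside 5.06% of all genes that rose. DEFA3 and S100A12 had too few empty vector reads to pass the low-count filter and were tested only through other groups. The tested share and the median therefore lean towards rises. DEFA4 (ENSG00000164821.4), the primary granule peptide defensin α4, was at 4.26 and 3.33 CPM with empty vector and 118 and 116 CPM with ΔIDR. It rose 30.9-fold, a log2 fold change of 4.95 ± 0.13 (edgeR adjusted p = 4.32e-50). DEFA3, another neutrophil defensin, had 1 count in the 2 empty vector libraries together and 394 in the ΔIDR libraries. The ratio of counts, scaled for library size, was 384, with an exact 95% interval of 68.6 to 15220 for counting error only. DEFA1 and DEFA1B, nearly identical copies of DEFA3, had 0 counts in every library, so which copy gave these reads is uncertain. DEFA3 was thus close to absent from empty vector libraries, DEFA4 was low in them, and both were well above them with ΔIDR.

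S100A8 and S100A9 encode the subunits of calprotectin, the calcium- and metal-binding complex of the neutrophil cytosol. S100A9 (ENSG00000163220.10) was at 6.53 and 6.44 CPM with empty vector and 48.9 and 52.0 CPM with ΔIDR, a log2 fold change of 2.96 ± 0.15 (edgeR adjusted p = 2.57e-29). S100A8 was at 1.83 and 0.792 CPM against 12.1 and 10.6 CPM, a log2 fold change of 3.11 ± 0.35 (edgeR adjusted p = 9.22e-12). The pair rose by similar amounts, and both ΔIDR libraries lay above both empty vector libraries for each. For S100A9 the rule that picked the largest rises required this. S100P, a related calcium-binding protein gene, rose by less, with a log2 fold change of 1.08 ± 0.20. S100A12, a further calgranulin, was at 0 and 0.211 CPM against 1.21 and 0.549 CPM and did not pass (edgeR adjusted p = 0.0809).

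Primary granule genes moved in both directions. Of 24 tested members, 12 rose, 4 fell and 8 did not pass, beside 5.06% and 5.23% of all genes that rose and fell. The list's median log2 fold change was 0.13 against -0.00 over all genes. The falls numbered 1 without the first empty vector library, and 2 without the second empty vector or the second ΔIDR library. BPI (ENSG00000101425.11), a granule protein that binds bacterial endotoxin, was at 0.971 and 0.897 CPM with empty vector and 7.06 and 6.68 CPM with ΔIDR, a log2 fold change of 2.87 ± 0.44 (edgeR adjusted p = 2.56e-07). SERPINB1, an inhibitor of neutrophil serine proteases, rose from 14.2 and 20.4 to 39.7 and 40.8 CPM, a log2 fold change of 1.22 ± 0.14. CTSD, the lysosomal protease cathepsin D, rose from 74.0 and 61.8 to 116 and 116 CPM. These 3 genes increased by at least 1.71-fold, whereas the most abundant members shifted less. SRGN, the proteoglycan core that packs granule proteases, rose from 4400 and 4339 to 6443 and 6362 CPM, a log2 fold change of 0.55 ± 0.01. PRTN3, the protease proteinase 3, rose from 299.5 and 290.1 to 433 and 440.4 CPM, and AZU1, azurocidin, rose from 73.9 and 72.1 to 84.1 and 91.9 CPM. MPO, myeloperoxidase, rose from 3833 and 3765 to 4107 and 4169.8 CPM, only 1.09-fold. LYZ, lysozyme, fell from 49.3 and 45.7 to 32.9 and 33.7 CPM, a log2 fold change of -0.51 ± 0.09. PRSS57, a granule serine protease, fell from 47.4 and 46.0 to 36.6 and 35.3 CPM. The AZU1 call ended without the second ΔIDR library (edgeR adjusted p = 0.187) or the second empty vector library (0.0781), and the PRSS57 call without the first empty vector library (0.0527). CTSG, cathepsin G, was at 23.6 and 27.4 CPM against 20.4 and 21.1 CPM and did not pass (edgeR adjusted p = 0.103).

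Most secondary and tertiary granule genes had too few reads to be tested. Of 30 listed genes 12 could be tested, and 0 of these were called higher by edgeR, limma voom or DESeq2, or at an unadjusted edgeR p below 0.05, and 3 were called lower by edgeR, with a median log2 fold change of -0.12. The other 18 had too few counts, and 14 of these had at most 5 counts in every library. LTF, LCN2, MMP8 and CEACAM8, which encode lactoferrin, lipocalin 2, a collagenase and an adhesion protein of secondary granules, each had at most 1 count in any of the 4 libraries. CEACAM6, an adhesion protein of granulocytes, had 0 counts in both empty vector libraries and 3 and 17 with ΔIDR, and without the low-count filter it was the 1 member called higher (edgeR adjusted p = 0.0408). MMP9 (ENSG00000100985.7), the gelatinase of tertiary granules, was at 355 and 346 CPM with empty vector and 169 and 169.6 CPM with ΔIDR. It was 2.07-fold lower, a log2 fold change of -1.05 ± 0.04 (edgeR adjusted p = 3.9e-37). FCN1, the lectin ficolin 1, fell from 66.3 and 61.0 to 45.2 and 47.3 CPM, and STOM, the membrane protein stomatin, fell by 0.23 on the log2 scale, but not without the second ΔIDR library (edgeR adjusted p = 0.150). Of 20 tested genes of granule trafficking, 4 rose, 1 fell and 15 did not pass, with a median log2 fold change of 0.01, and the rises numbered 2 without the second ΔIDR and 1 without the second empty vector library. The shares over all tested genes were 5.06% higher and 5.23% lower. RAB27B, a small GTPase of secretory granules, rose by 0.49 ± 0.08, and its relative RAB27A fell by 0.35 ± 0.05 on the log2 scale.

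**Figure D2:**
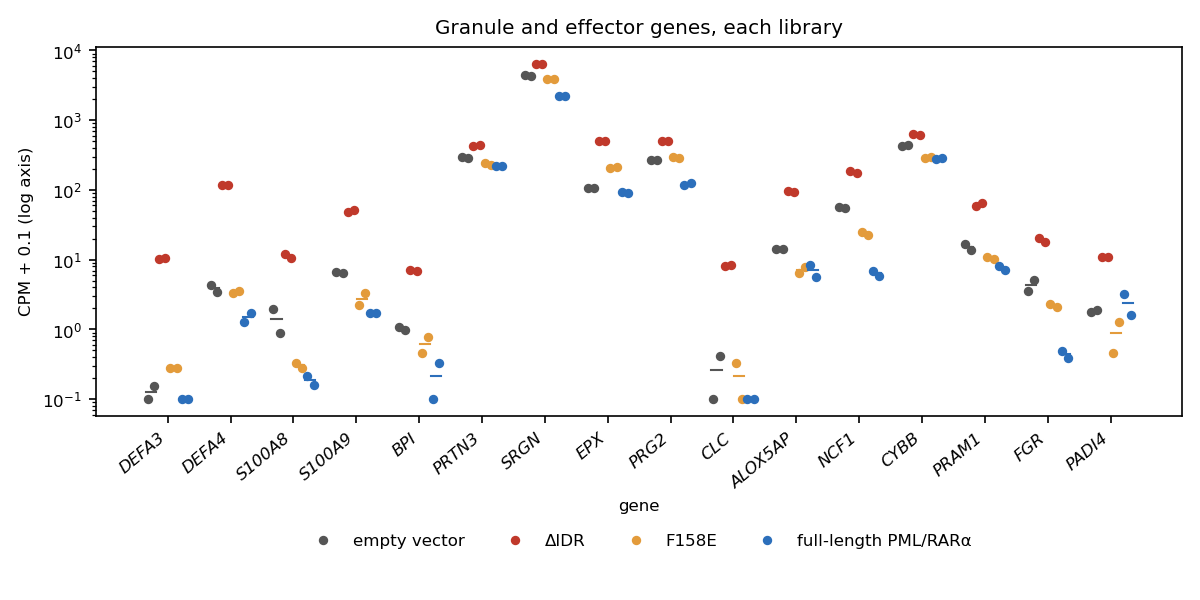
Level of granule, oxidase, eosinophil and effector genes in all 8 libraries, as CPM + 0.1 on a log axis, with 1 point per library, the 4 groups in colour and a dash at each group mean. For each gene shown both ΔIDR points lie above both empty vector points, and for DEFA4, S100A9, ALOX5AP, EPX and NCF1 the 2 points of a group lie close together beside that gap. The rule that picked the largest rises required such a separation.

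Eosinophil, basophil and mast cell genes rose in these promyelocytic cells. Of 18 tested members, 11 rose, 1 fell and 6 did not pass, beside 5.06% and 5.23% of all genes that rose and fell. The list's median log2 fold change was 0.91. HPGDS and CLC, given below, had too few empty vector reads to pass the low-count filter and were tested only through other groups. EPX (ENSG00000121053.5), the peroxidase of eosinophil granules, was at 108 and 106 CPM with empty vector and 509.6 and 502 CPM with ΔIDR. The log2 fold change was 2.24 ± 0.04 (edgeR adjusted p = 6.18e-63). PRG2, the eosinophil major basic protein, rose from 267 and 269 to 503 and 505 CPM, a log2 fold change of 0.91 ± 0.04. Both were well counted already with empty vector, and the gap between groups was far wider than that between libraries of a group. RNASE2, an eosinophil granule ribonuclease, rose from 129.9 and 146 to 189 and 183 CPM, whereas its close relative RNASE3 was at 3.56 and 3.96 against 5.43 and 5.04 CPM and did not pass (edgeR adjusted p = 0.368).

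ALOX5AP (ENSG00000132965.8, chromosome 13, positions 30713478 to 30764426), which presents arachidonic acid to 5-lipoxygenase in leukotriene synthesis, was at 13.9 and 13.9 CPM with empty vector and 97.8 and 94.5 CPM with ΔIDR. The log2 fold change was 2.79 ± 0.11 (edgeR adjusted p = 1.44e-36). CLC (ENSG00000105205.6, chromosome 19, positions 39731250 to 39738028), the galectin that forms Charcot-Leyden crystals, was at 0 and 0.317 CPM against 8.02 and 8.42 CPM, a log2 fold change of 5.63 ± 0.59 (edgeR adjusted p = 6.04e-13). HPGDS, the prostaglandin D synthase of mast cells, had 0 counts in both empty vector libraries and 54 in the ΔIDR libraries, at least 8.40-fold higher against a floor of 3 counts per library. The receptors SIGLEC8 and IL5RA, which mark eosinophils, rose from 1.13 and 0.897 to 6.09 and 4.76 CPM and from 0.701 and 1.00 to 4.58 and 2.93 CPM. Without the first ΔIDR library the IL5RA call ended (edgeR adjusted p = 0.0553), and by DESeq2 the CLC call did (adjusted p = 0.292). HDC, which makes histamine, fell slightly, from 427 and 433 to 391 and 384 CPM. CPA3 and MS4A2, mast cell genes, had log2 fold changes of 0.92 and 0.82 that did not pass.

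Since ALOX5AP and CLC were among the strongest rises and could be matched in RefSeq (GRCh38.p14), the stretch from 250 to 51 bases before each start is printed, 5′ to 3′ on the gene's strand. Capitals mark matches, on either strand, to GATAA for GATA factors, TTGCNNAA for C/EBP factors, GAGGAAGT for PU.1, TGANTCA for AP-1 and AGGTCA for nuclear receptors, none of which overlap in these stretches.
ALOX5AP, chr13:30713235-30713434, plus strand: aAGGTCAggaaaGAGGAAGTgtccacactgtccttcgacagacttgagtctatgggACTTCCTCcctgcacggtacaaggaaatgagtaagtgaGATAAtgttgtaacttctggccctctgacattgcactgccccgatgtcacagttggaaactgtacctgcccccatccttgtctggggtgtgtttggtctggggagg
CLC, chr19:39738080-39738279, minus strand: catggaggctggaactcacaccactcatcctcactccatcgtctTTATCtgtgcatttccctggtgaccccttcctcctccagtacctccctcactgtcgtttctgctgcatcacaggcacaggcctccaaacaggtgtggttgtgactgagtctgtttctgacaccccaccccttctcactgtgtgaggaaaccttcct
The ALOX5AP stretch held GAGGAAGT at -238 to -231 and, on the other strand, at -194 to -187, GATAA at -156 to -152 and AGGTCA at -249 to -244, counted from the start. The CLC stretch held GATAA on the other strand at -206 to -202. These matches describe letters and not bound sites.

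The phagocyte NADPH oxidase makes superoxide from a membrane pair, CYBB and CYBA, and cytosolic subunits that join it on activation. Of its 9 listed genes 6 rose and 3 did not pass, beside 5.06% of all genes that rose. The list's median log2 fold change was 0.29. The cytosolic organizer NCF1 (ENSG00000158517.12, chromosome 7, positions 74773962 to 74789315), p47phox, was at 57.2 and 54.9 CPM with empty vector and 184 and 178 CPM with ΔIDR. The log2 fold change was 1.69 ± 0.07 (edgeR adjusted p = 4.03e-36). Its near-identical copies NCF1B and NCF1C rose by 2.06 ± 0.12 and 1.97 ± 0.11, and reads cannot be assigned among the 3 with certainty. The membrane subunit CYBB rose from 430.5 and 445 to 637 and 620.0 CPM and CYBA from 139 and 124 to 150.3 and 160.1 CPM. The GTPase RAC2 and the subunit NCF4 rose by 0.42 ± 0.05 and 0.29 ± 0.09 on the log2 scale. The NCF4 call ended without any 1 of the 4 libraries (edgeR adjusted p from 0.0651 to 0.241), and the CYBA call without the second ΔIDR (0.0559) or the second empty vector library (0.141). The gain of NCF1 was thus larger in point value than those of CYBB, CYBA, RAC2 and NCF4. RAC1, RAP1A and CYBC1 had log2 fold changes between -0.05 and 0.12 that did not pass. In the RefSeq stretch before the NCF1 start, GAGGAAGT was found on the other strand at -47 to -40.

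Genes that retinoic acid is known to raise in granulocytic cells split. Of 19 tested, 8 rose, 3 fell and 8 did not pass, beside 5.06% and 5.23% of all genes that rose and fell. The list's median log2 fold change was 0.30. Without the second empty vector library 5 were called higher. PADI4 (ENSG00000159339.12), which converts arginine to citrulline in histones, was at 1.67 and 1.79 CPM with empty vector and 10.8 and 10.7 CPM with ΔIDR, a log2 fold change of 2.63 ± 0.32 (edgeR adjusted p = 2.86e-10). FGR, a SRC family kinase of phagocytes, rose from 3.45 and 4.96 to 20.1 and 18 CPM, a log2 fold change of 2.18 ± 0.22. PRAM1, an adaptor protein whose gene is known as a target of PML/RARα, rose from 16.9 and 13.7 to 58.1 and 65.5 CPM, a log2 fold change of 2.02 ± 0.12. These 3 genes were 4.04-fold to 6.19-fold higher. CD52 rose from 2.0 and 1.27 to 6.51 and 7.96 CPM, and ASB2, a ubiquitin ligase subunit, from 9.65 and 10.0 to 15.9 and 19.4 CPM. ADGRE1, LYN and RAB27A fell, with ADGRE1, an adhesion receptor of myeloid cells, at 6.20 and 7.07 CPM against 3.38 and 3.20 CPM. The ADGRE1 call ended without the second ΔIDR (edgeR adjusted p = 0.0790) or the second empty vector library (0.138).

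Of 11 tested genes for retinoid receptors and handling, 1 rose, 2 fell and 8 did not pass, beside 10.3% of all genes called. DHRS9, a retinol dehydrogenase, rose from 47.6 and 45.2 to 67.4 and 65.8 CPM. RXRA, the partner receptor, fell from 186 and 178 to 136 and 138 CPM, a log2 fold change of -0.41 ± 0.05 (edgeR adjusted p = 2.61e-11). STRA6, a retinol transporter gene, fell from 5.12 and 4.54 to 1.75 and 3.16 CPM, but not without the first ΔIDR library (edgeR adjusted p = 0.359) or either empty vector library (0.212 and 0.0891). CYP26A1, the retinoic acid hydroxylase that retinoic acid induces, and RARB had at most 5 counts in any library. Of 31 nuclear receptor coregulators, 2 rose, 4 fell and 25 did not pass, and without either empty vector library 2 were called lower. DNMT3B, a DNA methyltransferase, fell by 0.53 ± 0.09 on the log2 scale. Of 32 PML body and SUMO genes 0 rose by edgeR, limma voom or DESeq2, with 1 higher at an unadjusted edgeR p below 0.05, and 2 fell by edgeR. UBA2, a subunit of the SUMO-activating enzyme, fell by 0.16 on the log2 scale, but not without the second ΔIDR library (edgeR adjusted p = 0.0822) or the first empty vector library (0.212).

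Chemokine and cytokine genes were called in 11 of 28 cases, beside 10.3% of all genes. Of these 28, 9 rose, 2 fell and 17 did not pass, with a median log2 fold change of 0.00. CXCL10, a chemokine for T cells, rose from 6.09 and 10.2 to 19.1 and 19.0 CPM, a log2 fold change of 1.22 ± 0.19 (edgeR adjusted p = 2.98e-07). TNFSF13B, the B cell factor BAFF, rose from 20.6 and 22.4 to 43.5 and 46.8 CPM, and IL1B, interleukin 1β, from a mean of 38.3 to one of 60.7 CPM. CCL7, a monocyte chemokine, rose by 1.30 ± 0.34, but not without the second ΔIDR library (edgeR adjusted p = 0.243) or the second empty vector library (0.0763). IL1A rose by 1.08 ± 0.32, but not without the first ΔIDR library (edgeR adjusted p = 0.421) or either empty vector library (0.271 and 0.0530). CXCL8, the neutrophil chemoattractant interleukin 8, rose from 489.7 and 486 to 618 and 599 CPM, only 1.25-fold. HGF, a growth factor gene active in promyelocytic leukemia, fell from 19.9 and 16.6 to 10.7 and 12.1 CPM, and its adjusted p was 0.0502 by edgeR without the first empty vector library.

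Among surface receptors more genes rose than fell. Of 41 tested growth factor, chemoattractant and pattern receptors, 13 rose, 2 fell and 26 did not pass. That stands beside 5.06% of all genes that rose and 5.23% that fell. The list's median log2 fold change was 0.17. Without the second empty vector library 5 were called higher, and without the first ΔIDR or either empty vector library 0 were called lower. C5AR1, the receptor for the complement fragment C5a, was at 12.5 and 12.5 CPM with empty vector and 26.2 and 31.4 CPM with ΔIDR, a log2 fold change of 1.21 ± 0.14 (edgeR adjusted p = 9.05e-11). FCAR, the IgA receptor, rose from 4.31 and 3.06 to 8.80 and 9.29 CPM, and CCR1, a chemokine receptor, from 20.9 and 23.4 to 38.9 and 37.6 CPM. CSF2RB, the shared β chain of the GM-CSF, IL-3 and IL-5 receptors, rose from 24.4 and 30.5 to 42.7 and 47.1 CPM. FPR2, a formyl peptide receptor, had 3 counts in the empty vector libraries and 63 with ΔIDR. The scaled ratio was 20.5, with an exact 95% interval of 6.70 to 102. FPR2 had too few empty vector reads to pass the low-count filter and was tested only through other groups. The count of receptors that rose therefore leans towards rises. FPR2 was no longer called without the second ΔIDR library (edgeR adjusted p = 0.289) or the second empty vector library (0.0806), and FCAR without the latter (0.0939). CLEC5A and FCER1G, signalling receptors of myeloid cells, rose by 0.83 ± 0.16 and 0.76 ± 0.15. CLEC7A, the β-glucan receptor dectin-1, rose by 2.39 ± 0.75 and CXCR2, the interleukin 8 receptor, by 0.63 ± 0.20 on the log2 scale, but neither call held without any 1 of the 4 libraries. For CLEC7A the edgeR adjusted p was then 0.0886 to 0.204, and for CXCR2 0.0809 to 0.167. CSF1R, the M-CSF receptor, fell from 12.3 and 13.2 to 7.84 and 9.80 CPM (edgeR adjusted p = 0.0483), but not without the first ΔIDR (0.359), the first empty vector (0.140) or the second empty vector library (0.255). CSF3R, the G-CSF receptor, had a log2 fold change of 0.33 that did not pass.

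Among 25 integrin and adhesion genes, 9 rose, 2 fell and 14 did not pass. That stands beside 5.06% of all genes that rose and 5.23% that fell. The list's median log2 fold change was 0.16. SELPLG, the selectin ligand PSGL-1 on which leukocytes roll, rose from 11.2 and 15.8 to 31.5 and 32.5 CPM, a log2 fold change of 1.24 ± 0.13 (edgeR adjusted p = 9.19e-13). ITGAL, the α chain of LFA-1, rose from 8.04 and 6.44 to 15.6 and 13.7 CPM, and FERMT3, kindlin-3, which activates integrins, from 105 and 101 to 149 and 154 CPM. CD44, a hyaluronan receptor, fell from 32.7 and 30.2 to 20.3 and 17 CPM, a log2 fold change of -0.76 ± 0.12 (edgeR adjusted p = 7.79e-07). ITGAM, the CD11b gene that marks granulocyte maturation, was at 22.9 and 23.0 against 23.1 and 27.6 CPM and did not pass (edgeR adjusted p = 0.541). ITGB2, its partner chain, was at 141 and 146 against 138 and 133 CPM and did not pass either.

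Of 60 tested myeloid transcription factors, 10 rose, 12 fell and 38 did not pass. That stands beside 5.06% of all genes that rose and 5.23% that fell. The list's median log2 fold change was -0.04. Without the second empty vector library 4 were called higher and 5 lower. GATA1 (ENSG00000102145.12), the factor of the erythroid, eosinophil and mast cell branches, was at 5.29 and 4.01 CPM with empty vector and 17.2 and 14.8 CPM with ΔIDR, a log2 fold change of 1.78 ± 0.24 (edgeR adjusted p = 4.32e-09). GATA2, its relative in progenitors and mast cells, rose from 201 and 199.9 to 265 and 258 CPM, and GFI1B rose by 0.93 ± 0.32. The GFI1B call ended without any 1 of the 4 libraries (edgeR adjusted p from 0.0702 to 0.292), and by DESeq2 neither GATA1 (adjusted p = 0.0679) nor GFI1B (0.0662) passed. CEBPB, a C/EBP factor of emergency granulopoiesis, rose from 19.1 and 22.1 to 42.5 and 41.4 CPM, a log2 fold change of 1.03 ± 0.12 (edgeR adjusted p = 8.05e-11). CEBPE, the factor of the late granulocyte programme, rose from 66.7 and 64.7 to 80.8 and 80.4 CPM, whereas CEBPA was at 99.2 and 94.3 against 93.8 and 88.3 CPM and did not pass (edgeR adjusted p = 0.472). SPI1, which encodes PU.1, rose 1.17-fold, from a mean of 137 to one of 161 CPM. Without the second empty vector library CEBPE no longer passed (edgeR adjusted p = 0.0568), and without the first SPI1 did not (0.10). The factors with at least 2-fold rises, TFEC, GATA1, FOSB and CEBPB, included 2 with under 10 CPM in every library, TFEC and FOSB. TFEC did not pass without the first ΔIDR (edgeR adjusted p = 0.116) or the second empty vector library (0.0738), and FOSB without the second ΔIDR (0.577) or either empty vector library (0.155 and 0.0773). RUNX3, a RUNX factor, fell from 37.2 and 42.2 to 21.7 and 19.7 CPM, a log2 fold change of -0.94 ± 0.10 (edgeR adjusted p = 4.07e-12). FOSL2, an AP-1 subunit, fell from 69.5 and 66.5 to 43.3 and 40.4 CPM, and WT1 from 75.3 and 79.2 to 52.7 and 58.0 CPM.

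Genes of coagulation and fibrinolysis, the systems disturbed in patients with promyelocytic leukemia, mostly fell among those called. Of 19 tested, 6 fell, 1 rose and 12 did not pass, beside 5.23% and 5.06% of all genes that fell and rose. The list's median log2 fold change was -0.08. F3 (ENSG00000117525.12, chromosome 1, positions 94529225 to 94541800), tissue factor, which starts coagulation, was at 49.6 and 52.8 CPM with empty vector and 19.2 and 17.4 CPM with ΔIDR. It was 2.80-fold lower, a log2 fold change of -1.49 ± 0.10 (edgeR adjusted p = 1.52e-21). ANXA2 and S100A10 form the complex that binds plasminogen at the cell surface. ANXA2 fell from 62.0 and 60.1 to 38.5 and 36.3 CPM, and S100A10 from 30.5 and 30.2 to 20.4 and 23.6 CPM, though S100A10 did not pass without the first ΔIDR library (edgeR adjusted p = 0.0807). PLAU, urokinase, fell from 156 and 141 to 111 and 97.6 CPM, and its receptor PLAUR from 24.7 and 26.7 to 16.0 and 16.8 CPM. The plasminogen activator, its receptor and both members of the plasminogen-binding complex were thus lower. THBS1, thrombospondin 1, fell from 524 and 533 to 394 and 389 CPM. PLEK, the platelet and leukocyte protein pleckstrin, rose by 0.22 ± 0.04.

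The stretch from 250 to 51 bases before the RefSeq start of F3 (GRCh38.p14) is shown because it held 2 matches to TGANTCA, at -223 to -217 and -210 to -204, in capitals.
F3, chr1:94541810-94542009, minus strand: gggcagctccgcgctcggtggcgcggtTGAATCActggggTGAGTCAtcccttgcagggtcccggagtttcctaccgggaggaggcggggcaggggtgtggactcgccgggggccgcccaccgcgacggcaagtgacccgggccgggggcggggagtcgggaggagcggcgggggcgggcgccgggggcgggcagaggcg
The sequence is printed 5′ to 3′ on the gene's strand and was searched for the same 5 motifs as above.

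CYTL1 (ENSG00000170891.9), a small secreted protein gene, fell most among well-counted protein-coding genes. It was at 21.4 and 20.1 CPM with empty vector and 2.11 and 3.48 CPM with ΔIDR, 7.42-fold lower (edgeR adjusted p = 4.28e-23). STAB1, a scavenger receptor, fell from 20.9 and 21.4 to 7.66 and 6.32 CPM, and MMP2, a gelatinase, from 8.47 and 8.34 to 3.86 and 1.97 CPM. TP53I11 fell from 90.4 and 83.5 to 31.9 and 31.5 CPM, a log2 fold change of -1.46 ± 0.07 (edgeR adjusted p = 9.84e-32). In each of these genes both ΔIDR libraries lay below both empty vector libraries. The rule that picked the 12 largest falls required this, so it is no separate result. GAB2, a docking adaptor of growth factor signalling, fell from 34.0 and 29.1 to 13 and 10.6 CPM, and GJA1, connexin 43, from 64.5 and 61.0 to 23.8 and 29.8 CPM. FN1, fibronectin, fell from 19.7 and 13.5 to 7.06 and 6.0 CPM, and CLEC4E, a pattern receptor for mycobacterial glycolipid, from 16.9 and 14.6 to 6.63 and 6.73 CPM. DBNDD1, CHAT and PTPN3 completed the 12 largest falls, with log2 fold changes of -1.59, -1.37 and -1.31. On the other side, SLCO4C1, an organic anion transporter gene, rose from 1.13 and 0.897 to 15.3 and 16.6 CPM, a log2 fold change of 3.97 ± 0.31 (edgeR adjusted p = 3.7e-19).

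**Figure D3:**
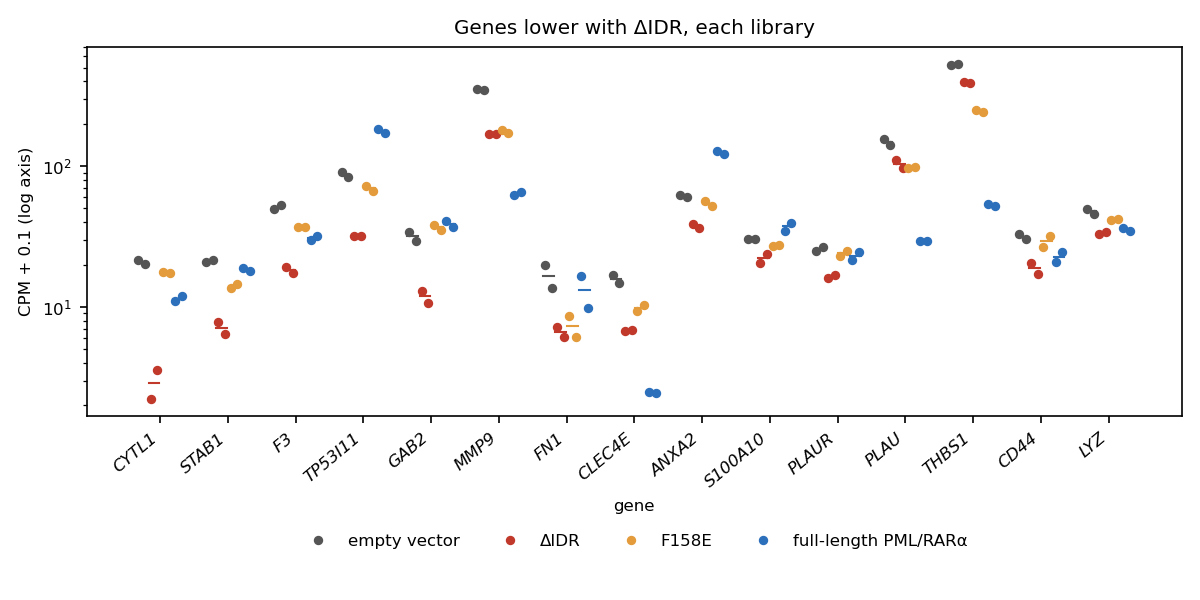
Level of genes that were lower with ΔIDR in all 8 libraries, as CPM + 0.1 on a log axis, with 1 point per library, the 4 groups in colour and a dash at each group mean. For each gene shown both ΔIDR points lie below both empty vector points, and for MMP9, PLAU and THBS1 the full-length points lie lower still. The rule that picked the largest falls required a separation from empty vector.

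All interferon-stimulated genes that were called rose. For this and the next 2 lists, the shares over all tested genes were 5.06% higher and 5.23% lower. Of 31 tested, 12 rose by edgeR, 0 fell by edgeR, limma voom or DESeq2 or at an unadjusted edgeR p below 0.05, and 19 did not pass, with a median log2 fold change of 0.37. Without the second empty vector library 7 were called higher. IFIT2, which binds viral RNA, was at 28.9 and 29.5 CPM with empty vector and 63.6 and 56.1 CPM with ΔIDR, a log2 fold change of 1.03 ± 0.10 (edgeR adjusted p = 3.89e-14). IFIT3 rose from 39.3 and 42.8 to 73.3 and 71.1 CPM and IFIT1 from 19.6 and 23.0 to 42.8 and 38.5 CPM. Only IFIT2 of the tested members changed by at least 2-fold among the calls. Of 13 tested antigen presentation genes, 0 rose by edgeR or DESeq2 and 1 by limma voom or at an unadjusted edgeR p below 0.05. The regulator NLRC5 fell by 0.44 ± 0.07 on the log2 scale. Of 25 NF-kB genes 2 rose and 3 fell, and without the first empty vector library 1 was called in each direction. RELB, a subunit, fell by 0.48 ± 0.14 on the log2 scale, but not without the first ΔIDR library (edgeR adjusted p = 0.102) or either empty vector library (0.0652 and 0.117).

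Genes for protein folding in the endoplasmic reticulum rose slightly: of 29 tested, 12 rose, 1 fell and 16 did not pass, with a median log2 fold change of 0.15. HSPA5, the chaperone BiP, rose from 2502 and 2489.9 to 2874 and 2856 CPM, a log2 fold change of 0.20 ± 0.02, and CALR, calreticulin, fell by 0.09 ± 0.01 on the log2 scale. All 13 mitochondrially encoded genes rose, with a median log2 fold change of 0.21, as MT-CO3, a cytochrome oxidase subunit gene, did from 4448 and 4342 to 5267 and 5319.7 CPM. Of 28 mitosis genes 12 fell by edgeR, 0 rose by edgeR, limma voom or DESeq2 or at an unadjusted edgeR p below 0.05, and 16 did not pass, with a median log2 fold change of -0.10. CDK1, the kinase of mitotic entry, fell from 366 and 371 to 331 and 319.8 CPM, and CCNB2, cyclin B2, fell by 0.21 ± 0.04 on the log2 scale. The mitotic falls were all under 1.5-fold, and leaving out 1 library gave 5 falls (without the first ΔIDR), 7 (second ΔIDR), 6 (first empty vector) or 7 (second empty vector) in place of 12. Of 32 replication genes 3 fell, of 20 cell cycle inhibitors and p53 targets 1 fell, and of 40 nucleolar genes 1 rose. Over all tested genes 5.06% rose and 5.23% fell, so these few calls are not read as a result about the lists. The 3 replication calls, MCM7, RFC5 and UHRF1, were all lost without the second ΔIDR library (edgeR adjusted p from 0.0533 to 0.311) or the second empty vector library (0.181 to 0.240). The calls of CDKN1B and NOP16 were lost without the first ΔIDR library or either empty vector library, with edgeR adjusted p from 0.0597 to 0.318 for CDKN1B and from 0.0507 to 0.178 for NOP16. Of 23 cholesterol synthesis genes 3 rose and 3 fell, with 1 lower without the first empty vector library and 1 higher without the second. Of 14 BCL2 family genes, BCL2A1, BCL2L11 and MCL1 rose and BCL2 fell. BCL2A1, a survival gene of neutrophils, rose from 12.6 and 8.13 to 17.5 and 23.2 CPM, and BCL2 fell from 58.7 and 53.5 to 40.6 and 39.9 CPM.

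**Figure D4:**
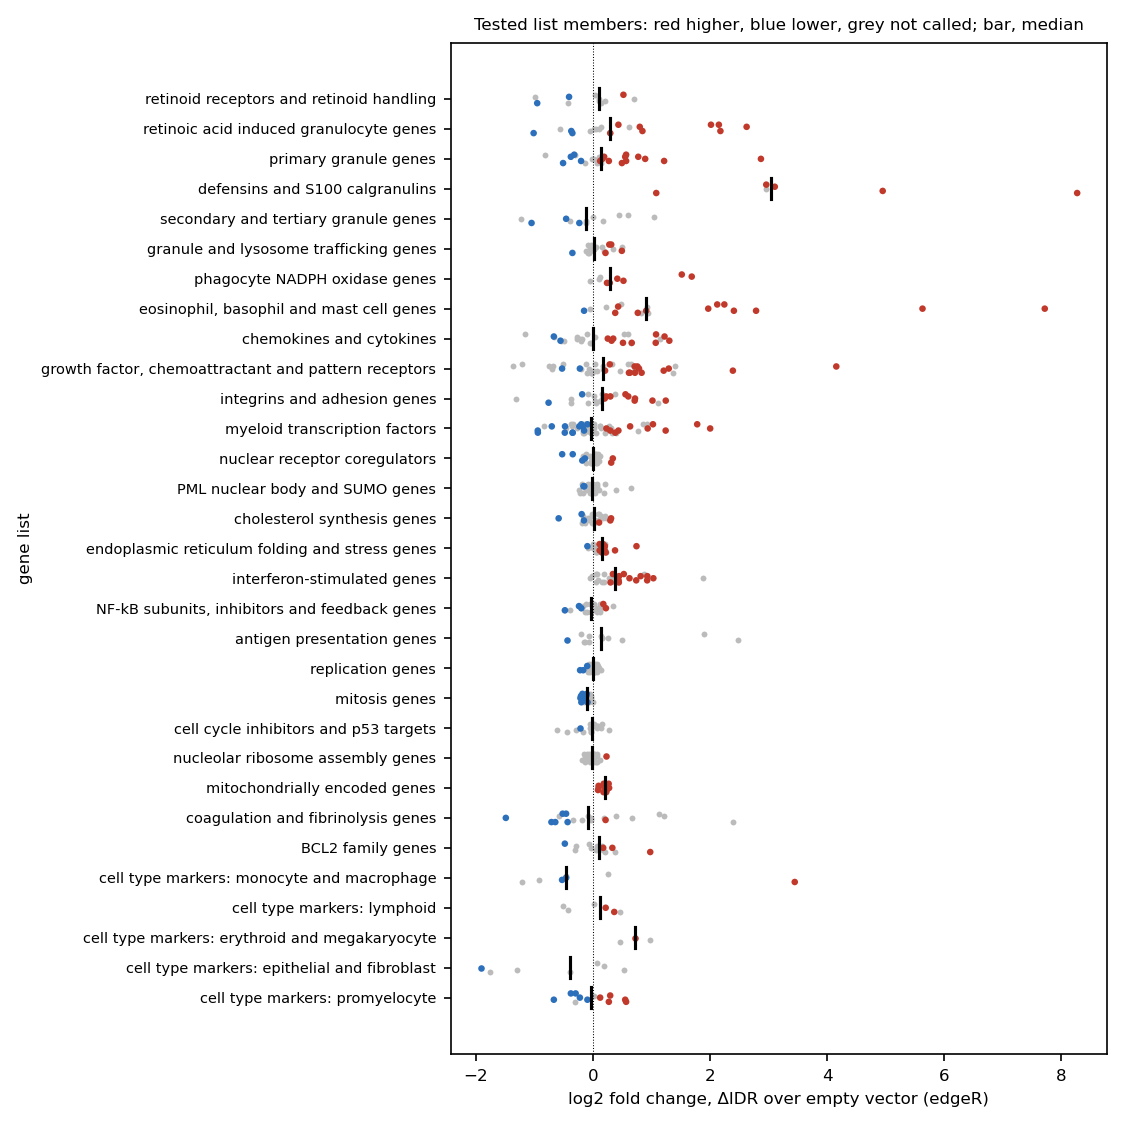
Log2 fold change of ΔIDR over empty vector for each tested member of the gene lists, 1 point per gene, with called members in red (higher) or blue (lower), the others in grey and the list's median as a bar; the fusion partners are not drawn. The defensin and calgranulin list and the eosinophil list have the highest medians, at 3.03 and 0.91, and the coagulation and secondary granule medians lie at -0.08 and -0.12.

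Direct tests set ΔIDR against the other constructs, with the caveat on construct level given above. Against F158E 2592 genes differed (18.5% of those tested), and against full-length PML/RARα 6971 (49.9%). All 6 tested defensin and calgranulin genes were higher with ΔIDR than with either construct. They include DEFA3 and S100A12, which passed the low-count filter only through groups other than empty vector. This share may therefore lean towards ΔIDR. DEFA4 had a mean of 117 CPM with ΔIDR, 3.31 with F158E and 1.41 with full-length PML/RARα, and S100A9 of 50.5, 2.67 and 1.64 CPM. The NADPH oxidase list had 7 of 9 members higher than with F158E and 8 of 9 higher than with full-length PML/RARα. NCF1 averaged 181 CPM with ΔIDR, 56.1 with empty vector, 23.7 with F158E and 6.30 with full-length PML/RARα. EPX differed in order, with 506 CPM with ΔIDR, 210 with F158E, 107 with empty vector and 91.9 with full-length PML/RARα, and ΔIDR exceeded F158E by 1.27 ± 0.04 on the log2 scale. Of 18 eosinophil and mast cell genes 11 were higher than with F158E and 16 higher than with full-length PML/RARα. The same limit of the filter holds here for HPGDS and CLC.

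For some genes the mutants were not told apart. MMP9 averaged 169 CPM with ΔIDR and 176 with F158E, a log2 difference of -0.06 ± 0.04 (edgeR adjusted p = 0.427), beside 350.3 with empty vector and 64.0 with full-length PML/RARα. PLAU averaged 104 and 97.3 CPM with the mutants (edgeR adjusted p = 0.324), 149 with empty vector and 29 with full-length PML/RARα. F3 was lower with ΔIDR than with F158E, by 1.02 ± 0.10 on the log2 scale, and than with full-length PML/RARα, by 0.76, at 18.3, 36.9 and 30.9 CPM. CYTL1 and RUNX3 were also lower with ΔIDR than with each of the other constructs. THBS1 and CXCL8 were higher with ΔIDR than with the other constructs: THBS1 averaged 391 CPM with ΔIDR, 245 with F158E and 52.7 with full-length PML/RARα, and CXCL8 609, 230.4 and 33.8 CPM.

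The 5 motifs were also counted in the 250 bases before all RefSeq starts, as a description of letters. GAGGAAGT occurred in 2.17% of all 35116 entries, in 2.41% of entries of tested genes, in 9.71% of entries of genes that rose at least 2-fold (10 of 103) and in 3.80% of those that fell at least 2-fold (3 of 79). The rising genes with it included ALOX5AP, NCF1, STAP1, HK1, in 1 of its 7 entries, and PLD4, whose call ended without the second ΔIDR library (edgeR adjusted p = 0.0929). GATAA occurred in 20.4%, 13.4%, 20.4% and 16.5% of the same entries, TTGCNNAA in 9.05%, 6.55%, 11.7% and 10.1%, TGANTCA in 6.57%, 4.44%, 9.71% and 10.1%, and AGGTCA in 12.1%, 9.0%, 15.5% and 6.33%. Some genes have several entries that overlap, and no binding was measured. Of the 10 entries of risen genes with GAGGAAGT, NHS held 2. NHS was near the floor, at a mean of 0.027 CPM with empty vector and 0.773 CPM with ΔIDR, and was tested only through other groups.

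The number of calls fell when any 1 of the 4 libraries was left out: from 1439 to 948 and 864 without the first and second empty vector library, and to 1130 and 1038 without the first and second ΔIDR library. A test against a 1.5-fold change in place of no change kept 110 genes, 61 higher and 49 lower, and with it 32 of the 209 list members called.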

How the data were processed

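RNA of 8 libraries of NB4 cells, 2 for each of 4 groups, was depleted of ribosomal RNA and prepared with the NEBNext Ultra kit, per the labels' protocols; this kit does not mark strand. The deposited values are raw read counts per gene, 1 file per library; the submitters' processing notes name the builds hg38 and GRCh38. Aligner, counter and annotation are not given in the sources used here. A file listed 60483 gene identifiers, and 87.9% to 88.7% of reads were assigned to genes; the 5 lines of unassigned reads were left out. Libraries of a group differed by more than sampling noise. Symbols came from a table of gene names (56321 matched), types and positions from GENCODE 29.

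edgeR 4.0.16 in R 4.3.3 gave quasi-likelihood tests over all 8 libraries, with TMM factors (0.989 to 1.01), the filterByExpr rule and Benjamini-Hochberg adjustment over the 13982 genes tested. Levels are CPM with TMM scaling. DESeq2 1.42.0, limma 3.58.1 voom, other scalings, filters, a replicate block and leaving out each library were the alternatives. Intervals cover counting error only. The fits were tested on simulated data. The members and the 32 gene lists (798 genes) were chosen with earlier results of these data known, and so were the motifs. The rule named the fusion partners, the 12 strongest rises and falls among called, non-overlapping protein-coding genes with a mean log2 CPM of at least 2, called members of at least 1.5-fold in the granule, oxidase, eosinophil, chemokine, receptor and transcription factor lists, and, of other lists, the 3 called members with the smallest adjusted p and 1 in the other direction. Named outside this rule, after their values were seen, were ADGRE1, ASB2, AZU1, CD52, CEBPE, CXCL8, CYBA, CYBB, GATA2, HDC, ITGAL, LYN, LYZ, NCF4, PLAU, PLAUR, PRSS57, RAC2, RNASE2, S100A10, SPI1, STOM, WT1, HK1, STAP1, PLD4, NHS, the copies NCF1B and NCF1C, uncalled genes, and the genes under other observations. Some genes that the rule named are not reported here.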

Additional observations from a re-analysis of the deposited data

How the results depend on the processing

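The count of called genes was 1439, and it stayed between 1304 and 1486 with other scaling, other filters, the 4 compared libraries alone, limma voom or DESeq2. Leaving out 1 library at a time gave 864 to 1130 called genes, 428 to 536 higher, 436 to 594 lower, 151 to 175 of at least 2-fold and 142 to 173 list members, the lowest without the second empty vector library. Tested against a 1.5-fold change, 110 genes were called, 61 higher, 49 lower and 91 of at least 2-fold, with 32 list members, since this test asks for a larger change. With at least 50 counts on average, 119 genes of at least 2-fold were called against 192, since fewer genes were tested. Scaling to library totals gave 674 higher and 773 lower genes. Of the 126 genes named by the rule none turned direction under these alternatives; 83 lost the call against 1.5-fold, 20 to 31 without 1 library, 7 without a low-count filter, 7 by voom and 8 of 123 by DESeq2. Replicate numbers gave deviations with correlations from -0.0106 to 0.0430 between groups, so the samples share only a number; with the replicate block 1433 genes were called, 704 higher, 729 lower and 182 of at least 2-fold, with 210 list members. The 2592 calls against F158E and 6971 against full-length PML/RARα ranged, in alternatives chosen after seeing the data, from 1861 to 2664 and from 6016 to 6991. The 13 mitochondrially encoded genes were not in the fit without them. Having 2 libraries a group and low counts limits genes under a few CPM.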

Other observations

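Of 426 tested lincRNA genes 10 were higher and 1 lower with ΔIDR, and of 737 antisense genes 10 and 2. Over all tested genes, 5.06% were higher and 5.23% lower. Levels were not matched between these classes and all genes, so whether the low shares are a trait of the classes was not tested. Counts without strand cannot separate an antisense gene from its partner. NEAT1, the scaffold RNA of paraspeckles, rose from 47.4 and 44.8 to 66.9 and 65.5 CPM, a log2 fold change of 0.52 ± 0.08 (edgeR adjusted p = 1.26e-07). MALAT1 rose from 23.6 and 25.6 to 36.6 and 35.7 CPM, and MIR223HG, the host gene of the granulocyte microRNA miR-223, from 59.6 and 53.9 to 77.4 and 77.2 CPM. NORAD rose from 413 and 404 to 464 and 451 CPM.

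Other genes with rises of more than 2-fold, singled out after their values were seen, include the following. SLC2A5, the fructose transporter, rose from 18.2 and 19.8 to 45.9 and 43.7 CPM, and HK1, hexokinase 1, from 16.1 and 17.3 to 36.9 and 42.2 CPM. AQP9, a water and glycerol channel of leukocytes, rose from 0.162 and 0.211 to 4.70 and 3.85 CPM. It had too few empty vector reads to pass the low-count filter and was tested only through other groups. VSIR, the immune checkpoint VISTA of myeloid cells, rose from 21.5 and 21.1 to 54.1 and 50.4 CPM, and CASP1, the inflammasome protease, from 5.02 and 3.32 to 12.1 and 10.6 CPM. CD37 rose from 7.39 and 6.23 to 20.9 and 15.9 CPM. PTGDR2, the prostaglandin D2 receptor of eosinophils and basophils, rose from 2.05 and 3.06 to 6.94 and 6.27 CPM, but not without the first empty vector library (edgeR adjusted p = 0.0644).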
